A study of Mus musculus with 24 samples.

Results

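The proteins that store, dock and release synaptic vesicles are encoded by a set of genes, some of which are used by only some neurons. Of these genes, 40 were followed here by symbol among the 49568 gene symbols counted. They were 3 synapsins (Syn1, Syn2, Syn3), 5 vesicle membrane proteins (Syp, Synpr, Sv2a, Sv2b, Sv2c), 4 SNAREs (Vamp1, Vamp2, Snap25, Stx1a), 8 synaptotagmins (Syt1, Syt2, Syt3, Syt4, Syt5, Syt7, Syt11, Syt12), 3 complexins (Cplx1, Cplx2, Cplx3), 8 active zone proteins (Rims1, Rims2, Rims3, Unc13a, Unc13b, Unc13c, Bsn, Pclo), 3 Rab3 GTPases (Rab3a, Rab3b, Rab3c), 2 vesicular transporters (Slc17a7, Slc32a1), 2 proteins of SNARE disassembly (Nsf, Napb) and 2 Doc2 calcium sensors (Doc2a, Doc2b). They were chosen by the function of their proteins, with earlier results of these data known.

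Whole hippocampus was taken at 12 weeks from experimentally naive male mice of a C57-Bl/6J background, either wild type (WT) or homozygous for a knock-in point mutation that inactivates the kinase MSK1 (MSK1 KD, in which the protein is made but its N-terminal kinase domain is dead in every cell that has it). Mice were kept in standard housing (SH) or were reared from birth in an enriched environment (EE) of larger cages with more mice, a running wheel and objects that were changed. WT and MSK1 KD mice were bred as separate homozygous lines rather than as littermates, so the mutation and the line cannot be told apart. Poly-A RNA was sequenced as 24 libraries, of which 33B (WT EE) and 34B (KD EE) are marked as failed, and the 22 others were compared, with 6 in WT SH, 5 in WT EE, 6 in KD SH and 5 in KD EE. The labels do not say that each library is a separate mouse, and p-values then measure the spread between these samples only.

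A vesicle is filled with transmitter by a transporter (Slc17a7 for glutamate, Slc32a1 for GABA), held in reserve by the synapsins, and brought to the active zone by Rab3 and the scaffold proteins RIM, Munc13 (the Unc13 genes), bassoon and piccolo. There Vamp2 on the vesicle and Snap25 and Stx1a on the plasma membrane zip into a SNARE complex, which complexin clamps until calcium binds synaptotagmin, and Nsf with Napb then takes the complex apart for another round. MSK1 phosphorylates CREB and histone H3 after neuronal activity, and the study asked among other things whether release from presynaptic terminals differed in enriched mice, which is why the mRNA of this machinery is of interest here.

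CREB is known to bind the cAMP response element (CRE), so the DNA before the start sites was searched for it. RefSeq promoter windows on GRCm38.p6 were at hand for 30 of the 40 genes, as 38 windows, and the 250 bases before each start were searched on both strands for the full CRE TGACGTCA. A second search took its half-site TGACG, and the last took the GC box GGGCGG. A full CRE holds the half-site on both strands. The full CRE stood in 1 of the 38 windows, that of Syn1, and in 1.55% of the 32851 windows of all genes. The half-site stood in 6 windows (Rab3a, Rab3b, Stx1a, Syn1, Syt2 and Unc13a), which is 15.8%, against 17.8% of all windows. The GC box was found in 22 of the 38 (57.9%), against 32.7% of all windows. A match of letters is a description and not a bound site.

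The windows of 4 genes are shown, that of Syn1 because it alone of the 38 held a full CRE, and those of Unc13a, Unc13b and Synpr because these genes had, with Syt12, the lowest p between the housings (Syt12 had no window). Capitals mark the CRE and its half-sites. All are written 5′ to 3′ on the strand of the gene and end at the base before the start site. They are chrX:20920919-20921168 (minus strand) for Syn1, chr8:71671758-71672007 (minus strand) for Unc13a, chr4:43058703-43058952 (plus strand) for Unc13b, and chr14:13284530-13284779 and chr14:13453708-13453957 (both plus strand) for the 2 starts of Synpr.
Syn1: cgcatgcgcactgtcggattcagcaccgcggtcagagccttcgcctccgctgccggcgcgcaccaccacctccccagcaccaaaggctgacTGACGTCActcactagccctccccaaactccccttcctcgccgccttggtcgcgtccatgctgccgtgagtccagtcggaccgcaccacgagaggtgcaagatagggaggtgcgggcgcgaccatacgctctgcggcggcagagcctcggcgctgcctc
Unc13a: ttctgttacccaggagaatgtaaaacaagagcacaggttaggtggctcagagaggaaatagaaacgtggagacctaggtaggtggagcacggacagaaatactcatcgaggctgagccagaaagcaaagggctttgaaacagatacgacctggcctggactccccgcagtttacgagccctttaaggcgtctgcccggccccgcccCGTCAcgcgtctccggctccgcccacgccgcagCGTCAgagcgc
Unc13b: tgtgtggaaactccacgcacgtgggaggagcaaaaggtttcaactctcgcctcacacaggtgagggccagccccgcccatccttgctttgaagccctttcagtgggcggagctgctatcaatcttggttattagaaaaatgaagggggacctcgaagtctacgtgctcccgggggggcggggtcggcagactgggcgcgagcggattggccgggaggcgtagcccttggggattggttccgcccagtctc
Synpr, start 1: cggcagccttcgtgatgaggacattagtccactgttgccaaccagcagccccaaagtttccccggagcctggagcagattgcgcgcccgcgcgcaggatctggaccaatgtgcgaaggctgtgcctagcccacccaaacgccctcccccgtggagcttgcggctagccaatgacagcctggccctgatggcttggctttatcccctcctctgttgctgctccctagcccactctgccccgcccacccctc
Synpr, start 2: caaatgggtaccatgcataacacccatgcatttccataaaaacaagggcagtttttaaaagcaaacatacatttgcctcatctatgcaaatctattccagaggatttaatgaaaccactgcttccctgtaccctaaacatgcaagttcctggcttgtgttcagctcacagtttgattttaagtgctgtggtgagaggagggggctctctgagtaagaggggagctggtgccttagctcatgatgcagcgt
Unc13a, the main Munc13 of excitatory terminals, held 2 half-sites and 2 GC boxes close to its start, while Unc13b (Munc13-2) held no half-site and 4 GC boxes. The first start of Synpr, which encodes synaptoporin, a vesicle protein of mossy fibre terminals, had 64.0% G and C and 1 GC box, and the second, further into the gene, 44.4% and none.

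Depth was ample for all 40 genes in the 22 libraries. Counts on genes were between 8911999 and 56752074 per library (median 30265877.5), of which the 40 genes took between 1.66% and 1.90%. The smallest count of any member in a library was 28 (Doc2a in library 9), above the floor of 3 counts used for detection, and all 40 passed the filter on low counts, as did 18482 genes in all. Levels are given as CPM, the usual unit that sets the counts of a gene against all counts on genes of its library, scaled by TMM. The list of 7 neuronal markers summed to between 7048 and 8235 CPM in the 22 libraries, none at 0. Marker lists of other regions and cells set some libraries apart before any gene of the vesicle is considered. Library 12 (WT SH) held 322 CPM of 6 thalamic markers, against 83.5 to 105 in the others, library 14 (WT SH) held 304 CPM of 7 striatal markers, against 156 to 202, and library 5 (KD SH) held the lowest sum of 4 dentate granule cell markers (177 CPM) and the highest of 4 neocortical ones (92.8 CPM). The 10 markers of choroid plexus, an epithelium of the ventricles next to the hippocampus, summed to 231 to 7970 CPM in WT EE and 459 to 8277 in KD EE, against 243 to 2775 in WT SH and 226 to 4347 in KD SH. In such bulk tissue, fewer cells of a type and less RNA per cell cannot be told apart. Rps6ka5, which encodes MSK1, was at 19.3 to 29.0 CPM in every library, and as the mutation is a point mutation, its counts do not check the genotype.

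Per length, the members differed widely in level. The levels are CPM per kilobase of merged exons of GENCODE M21, as mean ± SD over the 22 libraries. The highest were Cplx2 at 311 ± 37.8, Snap25 at 293 ± 28.5, Vamp2 at 277 ± 21.7 and Slc17a7 at 251 ± 20.2, that is a complexin, the 2 SNAREs of the evoked release of most forebrain synapses, and the glutamate transporter VGLUT1. The SDs of neighbours in this order overlap, those of Cplx2 and Slc17a7 do not, and Cplx2 ranked between 1 and 6 in single libraries. Next came Cplx1 (239 ± 13.7), Rab3a (203 ± 11.3), Syn1 (196 ± 15.96) and the fast calcium sensor Syt1 (184 ± 10.6), of which Rab3a, Syn1 and Syt1 had SDs that reached their neighbours in this order, while those of Cplx1 and Rab3a did not meet. The lowest were Syn3 at 1.11 ± 0.214, Doc2a at 2.27 ± 0.419, Syt12 at 3.44 ± 0.411 and Cplx3 at 3.52 ± 0.680, and the last 2 cannot be placed in order by their spread. Within families the gaps were wide. Syn1 stood at 196, Syn2 at 101 ± 6.17 and Syn3 at 1.11. Among the synaptotagmins, Syt1 and Syt11 (162 ± 6.47) led, Syt5 (57.4 ± 3.74) and Syt7 (54.8 ± 3.76), the latter a slow sensor of asynchronous release and facilitation, lay between, and Syt2 (5.67 ± 1.10), the fast sensor of hindbrain and some interneurons, was low. Among the Munc13 genes, Unc13a (39.5 ± 4.46) stood well above Unc13c (4.07 ± 1.01) and Unc13b (3.65 ± 0.326), and the last 2 overlapped. The merged exons of all annotated transcripts came to 22.746 kb for Unc13b and 8.796 kb for Unc13c. In CPM these 2 were at 83.1 and 35.8, so their place per length depends on the length taken.

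**Figure D1:**
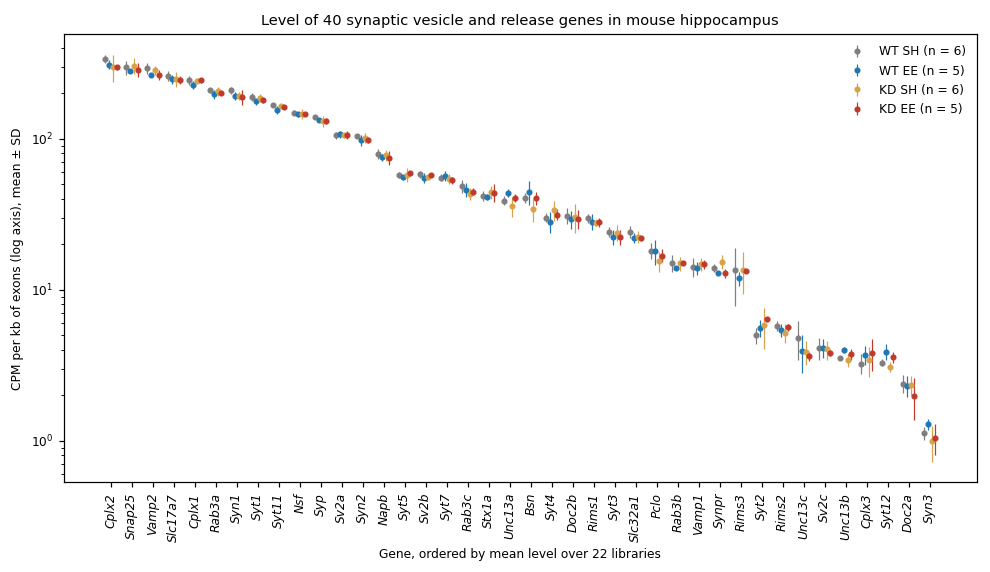
Mean level of each of the 40 genes in the 4 groups, in CPM per kilobase of exons on a log axis, with the SD over libraries as bars, and genes ordered by their mean over 22 libraries. The 4 groups lie on each other at nearly every gene, from Cplx2 at 311 to Syn3 at 1.11, and the widest bars belong to Rims3 in WT SH and KD SH.

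The counting took no account of strand, so a read in bases shared with a gene on the other strand cannot be assigned to either. Such reads were set aside as ambiguous and are missing from the counts of both genes. Exons of 16 of the 40 genes shared bases with another gene, and for 6 members the share was above 10% of the exon bases. These were Doc2a (39.4%, with Ino80e), Slc32a1 (24.9%, with Gm14205), Syt12 (17.2%, with A930001C03Rik), Syp (16.8%, with Gm14703), Syt4 (14.5%, with Gm26658) and Syn3 (14.1%, with Timp3), so their values are less certain. Their levels per length may also be too low, because the length took in all exon bases. Doc2a, Syt12 and Syn3 were among the lowest by that measure, and their order there is less certain too. The members lie on 17 chromosomes of GRCm38, and those with the lowest p between the housings are protein-coding genes at chr19:4445908-4477447 (Syt12), chr14:13284780-13616340 (Synpr), chr4:43058953-43264871 (Unc13b), chr8:71624417-71671757 (Unc13a), chr11:69088490-69092384 (Vamp2) and chr9:108096022-108190384 (Bsn).

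The first comparison asked what enrichment did in WT mice. A call needed both an adjusted p no higher than 0.05 and a log2 fold change of at least 0.38 (1.3-fold) in size. The quasi-likelihood test of edgeR over 22 libraries called none of the 40 genes and 0% of the 18482 tested, and DESeq2 called none of the 40. At an unadjusted p under 0.05 there were 5 of the 40, 3 higher and 2 lower, against 8.65% of all genes (5.24% higher and 3.4% lower). These were Syt12, Unc13b and Unc13a on the higher side and Vamp2 and Syt11 on the lower. The 95% interval of the log2 fold change lay within 0.38 of 0 on both sides for 34 of the 40, against 57.3% of all genes. The width of such an interval also depends on the counts of a gene. Here and below, these shares therefore do not compare how steady the members and other genes were.

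Syt12, a synaptotagmin without calcium binding that is a target of protein kinase A in mossy fibre terminals, had the lowest p. Its level in WT SH was 16.8 CPM at the lowest, 18.1 at the median and 19.9 at the highest, and in the 5 WT EE libraries it was 19.2, 19.5, 20.7, 23.5 and 24.8 CPM. The groups overlapped in that 1 SH library, 11, stood above 2 of the EE libraries. The log2 fold change was 0.24 (SE 0.077, adjusted p = 0.401 by edgeR's quasi-likelihood test). In the 2 EE libraries with the least choroid plexus RNA, 35A (231 CPM of markers) and 31B (266 CPM), Syt12 was 19.2 and 20.7 CPM, and in the 3 with 5923 CPM or more it was 19.5 to 24.8.

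The Munc13 genes, whose proteins prime vesicles for fusion, were next. Unc13b was 76.2, 80.7 and 83.6 CPM at the lowest, median and highest in WT SH, and 87.5, 88.3, 88.7, 90.2 and 98.2 CPM in WT EE. Every EE library was therefore above every SH library. It was the 1 member with no overlap in that direction, and over all genes 0.46% had none. The log2 fold change was 0.17 (SE 0.064, adjusted p = 0.434 by edgeR). Unc13a was 430, 496 and 535 CPM in WT SH, and 513, 532, 558, 562 and 600 CPM in WT EE, of which 2 lay below the highest SH library. Its log2 fold change was also 0.17 (SE 0.080, adjusted p = 0.553 by edgeR), and 0.11 in the 17 libraries used by the study. Unc13c (Munc13-3) went the other way, with 30.99, 39.5 and 63.7 CPM in WT SH against 24.4, 29.0, 32.1, 37.1 and 49.5 in WT EE, a difference of -0.29 on the log2 scale with a 95% interval that held 0. The highest Unc13c value was that of library 12, which carried the thalamic markers, and the part of those in the result was not tested.

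Vamp2, the vesicle SNARE, was lower by a small amount. Its values were 1031, 1088 and 1284 CPM in WT SH, and 978, 987, 996, 1023 and 1035 CPM in WT EE, and 4 of 5 EE libraries were below every SH library. The log2 fold change was -0.15 (SE 0.061, adjusted p = 0.462 by edgeR). The rest of the SNAREs went the same way without reaching an unadjusted p of 0.05, and so did all 3 Rab3 GTPases, both transporters, both genes of SNARE disassembly and both Doc2 genes. In all, 30 of the 40 fold changes lay below 0, against 47.9% of all genes, with a median of -0.08 on the log2 scale (-0.12 without the lettered libraries). The summed level of the 40 was 17776 to 19372 CPM in WT SH and 17106 to 18842 in WT EE, and that of the neuronal markers 7141 to 8235 and 7048 to 8048, so both sums were lower in EE at the lowest and at the highest library. Other marker sums moved between the same groups. From WT SH to WT EE, 6 markers of inhibitory interneurons went from 757 to 854 CPM to 671 to 761, the median of oligodendrocyte markers from 5526 to 5048, that of 5 microglial markers from 248 to 231 and that of choroid plexus markers from 286 to 5923. The part of the cell types sampled in the shift of the members was not tested.

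**Figure D2:**
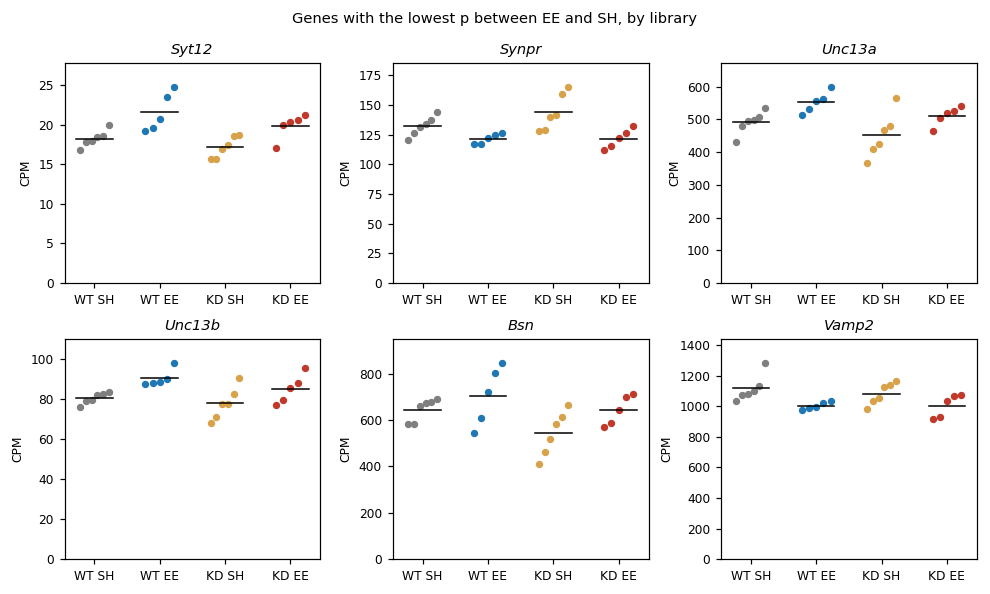
CPM of 6 genes in each of the 22 libraries, by group, with every axis from 0 and the group mean as a bar. Unc13b is the panel in which the 5 WT EE points (87.5 to 98.2) lie above all 6 WT SH points (76.2 to 83.6), and in the others the groups overlap.

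Enrichment in MSK1 KD mice was the second comparison, and it asked whether the same housing acted where the kinase is dead. Again none of the 40 was called by edgeR, where 0% of all genes were, or by DESeq2. At an unadjusted p under 0.05 there were 5, of which 4 were higher and 1 lower, against 9.63% of all genes (5.03% higher and 4.6% lower). They were Syt12, Unc13a, Unc13b and Bsn on the higher side and Synpr on the lower. The 95% interval lay inside the bound of 0.38 for 32 of the 40, against 55.4% of all genes, and 18 of the 40 fold changes lay below 0, against 49.1% of all genes, with a median of 0.0041 on the log2 scale.

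Synpr had the lowest p. Synaptoporin was 128, 141 and 165 CPM at the lowest, median and highest in KD SH, and 112, 115, 122, 126 and 132 CPM in KD EE. Of the 5 EE libraries, 4 were below every SH library and 1, library 7, was within them. The log2 fold change was -0.23 (SE 0.064, adjusted p = 0.453 by edgeR). In WT the same gene was 121, 133 and 144 CPM in SH and 117, 117, 122, 125 and 127 in EE, a difference of -0.12 on the log2 scale with an interval from -0.25 to 0.011.

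Syt12 was 15.7, 17.1 and 18.7 CPM in KD SH, and 17.1, 19.97, 20.4, 20.55 and 21.2 CPM in KD EE. Library 7 alone lay within the SH range. The log2 fold change of 0.22 (SE 0.078, adjusted p = 0.463 by edgeR) was close to the 0.24 of WT, and the interaction was -0.017 with a 95% interval from -0.24 to 0.21. Unc13a was 366, 446 and 565 CPM in KD SH, and 466.1, 505, 521, 527 and 540 CPM in KD EE. Here the SH group was the wider one, with library 6 above all EE libraries. Library 1 was far below all of them, and SH values of 408 and 426 CPM were below them too. The log2 fold change was 0.19 (SE 0.080, adjusted p = 0.485 by edgeR), and for Unc13b it was 0.14 (SE 0.064, adjusted p = 0.501). Without library 32A that of Unc13b was 0.090, as it was in the 17 libraries used by the study.

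Bsn encodes bassoon, a giant scaffold protein of the active zone. It was 410, 550 and 665 CPM in KD SH, and 568, 589, 642, 701 and 715 CPM in KD EE, so that the 5 EE libraries sat in the upper part of the SH range or above it. Its log2 fold change was 0.26 (SE 0.112, adjusted p = 0.491 by edgeR). In WT it was 0.13 with an interval from -0.10 to 0.36. Without the lettered libraries the KD value was 0.16.

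When the housings were compared over both genotypes together, Syt12 and Synpr came closest to a call. Of all genes 0.146% were called (27), and none of the 40 was, by edgeR or by DESeq2. At an unadjusted p under 0.05 there were 6 of the 40, 4 higher and 2 lower, against 16.1% of all genes (8.86% higher and 7.28% lower), so the share of the members was near the background. In order of p they were Syt12 (log2 fold change 0.23, SE 0.055, adjusted p = 0.0559 by edgeR), Synpr (-0.18, SE 0.045, adjusted p = 0.0655), Unc13b (0.16, SE 0.045, adjusted p = 0.0907), Unc13a (0.18, SE 0.057, adjusted p = 0.109), Vamp2 (-0.13, SE 0.043, adjusted p = 0.141) and Bsn (0.19, SE 0.080, adjusted p = 0.225). Of the 8 active zone genes, 5 were on the higher side, Unc13a, Unc13b and Bsn among them. The 3 others were on the lower side, down to a log2 fold change of -0.18. Besides Unc13a, Unc13b and Bsn, no gene of that role had an unadjusted p under 0.05. For 37 of the 40, the 95% interval lay inside 0.38, against 66.8% of all genes. DESeq2 put Syt12, Synpr and Unc13b below an adjusted p of 0.05 (0.00714, 0.0218 and 0.0460), as did edgeR Syt12 and Synpr in the 17 libraries used by the study (0.0156 and 0.0247) and in all 24 (0.0362 and 0.0422), but in none of these was the fold change as large as 0.38. Without libraries 5, 12 and 14, an alternative chosen after seeing the data, the adjusted p was 0.109 for Syt12 and 0.0789 for Synpr.

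The 5 libraries whose code ends in a letter (31B, 32A, 33A, 35A and 36A) are all from enriched mice, and the labels do not say what the letter stands for. Among the numbered libraries alone, where 2 of WT EE and 3 of KD EE remain, the averaged difference between the housings stayed at 0.24 for Syt12, -0.17 for Synpr, 0.16 for Unc13a, 0.13 for Unc13b and -0.13 for Vamp2, and that of Bsn was 0.0026. Bsn in WT went from 0.13 to -0.16 when the lettered libraries were left out. None was called in these libraries.

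Members with long exons were also set against the rest, library by library. Exons of 8 members add up to 10000 bases or more (Bsn, Pclo, Rab3c, Rims2, Syn3, Unc13a, Unc13b and Vamp1). In each library, the median deviation of these 8 from their own mean over libraries was set against that of the 32 others. The difference was above 0 in all 5 lettered libraries, between 0.053 in 36A and 0.31 in 35A on the log2 scale, and lowest in libraries 1 (-0.41) and 2 (-0.21), both KD SH. By group it ran from -0.12 to 0.043 in WT SH, -0.0078 to 0.31 in WT EE, -0.41 to 0.048 in KD SH and -0.088 to 0.16 in KD EE. The same difference over 1436 long and 13194 other genes of at least 1 CPM ran from 0.019 to 0.17 in the lettered libraries and from -0.16 to 0.098 in the numbered ones. It was smaller than that of the members in each lettered library and in libraries 1 and 2, but not in every numbered one (in library 17 it was -0.15 against -0.0078). Libraries 35A and 1 were the highest and the lowest for Unc13a, Bsn and Pclo alike, at 600 and 366 CPM for Unc13a, 848 and 410 for Bsn and 474 and 280 for Pclo. Unc13a, Unc13b and Bsn are themselves among the 8 long members, so this measure is not independent of their differences. The part of exon length in those differences was not tested, and Syt12, Synpr and Vamp2 are not among the long genes.

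**Figure D3:**
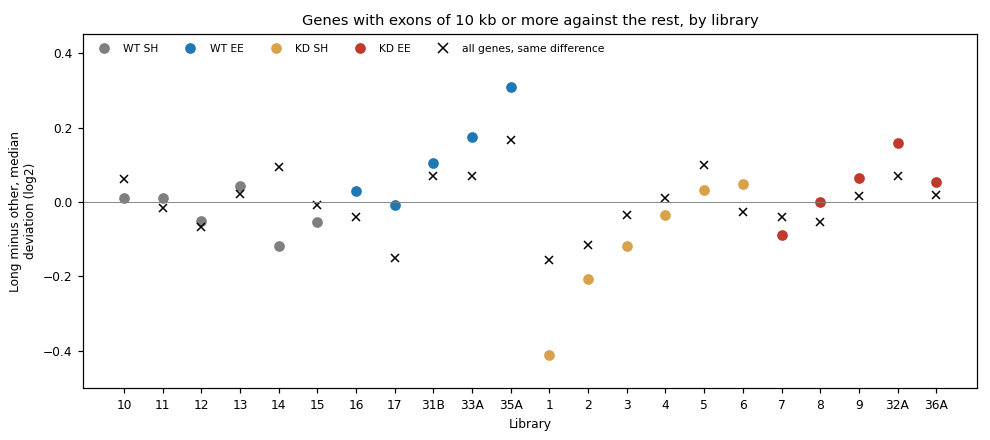
For each of the 22 libraries, ordered by group, the median log2 deviation of the 8 members with 10000 or more exon bases minus that of the 32 others (circles), and the same over all genes of at least 1 CPM (crosses). The circles of the 5 lettered libraries lie above 0, with 35A at 0.31, and that of library 1 is the lowest at -0.41.

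The genotypes were compared within each housing to ask what the dead kinase did on its own. In standard housing none of the 40 was called by edgeR or by DESeq2, where edgeR called 0% of all genes, and 3 had an unadjusted p under 0.05, all lower in KD, against 5.76% of all genes (2.81% lower). These were Rab3c, Bsn and Pclo, and each has long exons. Rab3c, a vesicle GTPase, was 528, 564 and 677 CPM at the lowest, median and highest in WT SH, and 462, 519 and 568 CPM in KD SH, a difference of -0.18 on the log2 scale (SE 0.073, adjusted p = 0.811 by edgeR). Bsn was 582, 668 and 690 CPM in WT SH against 410, 550 and 665 in KD SH, a difference of -0.25 on the log2 scale (SE 0.107, adjusted p = 0.811 by edgeR). Pclo, which encodes the bassoon partner piccolo, was 333, 403 and 465 CPM in WT SH against 280, 375 and 393 in KD SH, a difference of -0.23 on the log2 scale (SE 0.110, adjusted p = 0.811 by edgeR). All 3 pairs of groups overlapped. Without library 1, where long members were lowest, the fold change of Bsn went to -0.18 and that of Pclo to -0.17. Other omissions moved them the other way, to -0.32 for Bsn without library 6 and -0.28 for Pclo without library 12. Of the 40, 31 had a fold change below 0, against 47.8% of all genes, with a median of -0.03 that went to -0.059 without library 12 and to -0.017 without library 2, and the interval lay inside 0.38 for 33, against 60.1% of all genes. The WT SH libraries were the reference here and for enrichment in WT, so the counts below 0 in both comparisons are not independent. The mean summed level of the 40 was 18726 CPM in WT SH, 17874 in WT EE, 17984 in KD SH and 17812 in KD EE.

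In enriched housing no member had an unadjusted p under 0.05, against 2.61% of all genes, and none was called by edgeR (0% of all genes) or DESeq2. Cplx1, the complexin of inhibitory and many projection neurons, had the lowest p, with 470, 475, 486, 521 and 531 CPM in WT EE and 509, 522, 525, 545 and 566 CPM in KD EE, a difference of 0.11 on the log2 scale (SE 0.055, adjusted p = 0.999994 by edgeR). Syn3 came next, with 14.1, 14.95, 16.4, 16.5 and 17.3 CPM in WT EE and 8.88, 11.4, 13.2, 13.8 and 17.2 in KD EE, a difference of -0.28 on the log2 scale (SE 0.166), and the KD group was by far the wider. Leaving out 1 library moved it to between -0.42 (without 32A) and -0.18 (without 7). Rab3b was 48.4 to 50.02 CPM in the 5 WT EE libraries and 52.3 to 53.9 in the 5 KD EE libraries, so the groups did not overlap, as in 0.13% of all genes in that direction. Its log2 fold change was only 0.12 (SE 0.077, adjusted p = 0.999994 by edgeR), and in SH the same gene ran from 46.7 to 65.9 CPM in WT and from 46.6 to 61.2 in KD. The interval lay inside 0.38 for 34 of the 40, against 57.9% of all genes.

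Over both housings, 4 members had an unadjusted p under 0.05 between KD and WT, 2 higher and 2 lower, against 6.06% of all genes (3.45% higher and 2.61% lower). None was called by edgeR (0% of all genes) or DESeq2. Bsn (-0.19, SE 0.080) and Syn3 (-0.23, SE 0.112) were lower, and Syt4 (0.16, SE 0.069) and Syt2 (0.20, SE 0.097) higher, each with an adjusted p of 0.803 by edgeR. The difference of Bsn was -0.090 in the 17 libraries used by the study and -0.093 without the lettered libraries, where that of Syt4 was 0.27. The interval lay inside 0.38 for 37 of the 40, against 70.2% of all genes. Syt4, a synaptotagmin of dense-core vesicles that does not bind calcium in the usual way, was 109, 115 and 128 CPM in WT SH, 83.2, 107, 108, 124 and 126 in WT EE, 106, 123 and 162 in KD SH, and 113, 117, 121, 123 and 139 in KD EE. Syt2 was 30.99, 37.8 and 44.4 CPM in WT SH, 35.7, 40.6, 41.7, 46.1 and 50.03 in WT EE, 32.8, 39.6 and 69.7 in KD SH, and 45.8, 47.9, 48.0, 49.1 and 51.7 in KD EE. Library 5 gave the highest value of both genes in KD SH, and without it the difference of Syt2 was 0.12.

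The interaction of genotype and housing asked whether enrichment moved a gene differently in the 2 genotypes. It reached an unadjusted p under 0.05 for none of the 40, against 2.04% of all genes, and no member was called by edgeR (0% of all genes) or DESeq2. The lowest p was that of Rims2, which encodes the active zone scaffold RIM2. It was 55.5, 59.2 and 67.0 CPM in WT SH, 49.3, 51.3, 58.2, 60.2 and 61.9 in WT EE, 44.2, 51.7 and 66.6 in KD SH, and 54.6, 57.1, 57.7, 59.9 and 63.4 in KD EE. The difference between the 2 log2 fold changes was 0.22 (SE 0.117) with a 95% interval from -0.022 to 0.46 (unadjusted p = 0.0725), and it was 0.15 in all 24 libraries and 0.35 without the lettered ones. For Cplx1 it was 0.12, from -0.029 to 0.28. The intervals of 28 of the 40 lay inside 0.38, against 45% of all genes, so for the other 12 a difference of that size between the genotypes was not bounded. Among the 4 groups together, 6 members had an unadjusted p under 0.05 against 10.6% of all genes (Syt12, Synpr, Unc13a, Unc13b, Bsn and Vamp2), the lowest adjusted p being 0.289 for Syt12. This test has no single fold change, so a call in it needed only an adjusted p no higher than 0.05, and by edgeR 0% of all genes met that. By DESeq2 1 of the 40 met it, Syt12, with an adjusted p of 0.0289.

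**Figure D4:**
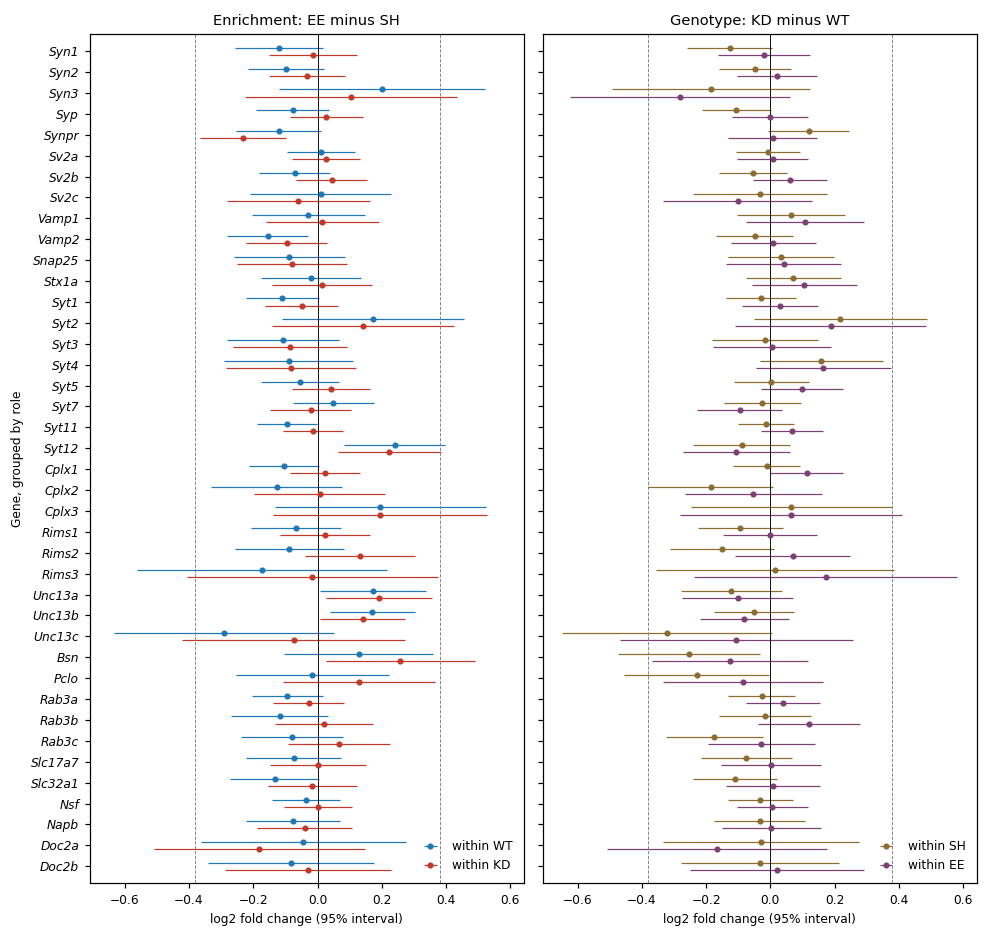
Log2 fold change of each of the 40 genes with its 95% interval, for EE minus SH within each genotype (left) and KD minus WT within each housing (right), with dashed lines at 0.38 on both sides of 0. Syt12, Unc13a and Unc13b lie to the right of 0 in both genotypes on the left, and most other intervals cross 0 and end within the dashed lines.

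Some members varied between libraries more than the rest, and in Rims3 single libraries stood far from the others. The coefficient of variation over the 22 libraries was 27.3% for Rims3, 24.9% for Unc13c, 19.4% for Syt2 and 19.4% for Syn3, against 3.99% for Syt11, the steadiest. Rims3, which encodes the short RIM3 protein, was 196 CPM in library 12 and 75.1 to 101 in the 5 other WT SH libraries, and 176 CPM in library 5 against 82.1 to 104 in the 5 other KD SH libraries. In EE it was 79.6, 90.8, 93.7, 104 and 105 CPM in WT and 102, 103, 106, 107 and 111 CPM in KD. Unc13c was highest in library 12 (63.7 CPM), Syt2 in library 5 (69.7 CPM), and Syn3 was lowest in library 1 (6.98 CPM), where the long genes were low as a set.

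Vamp1, the SNARE that replaces Vamp2 in many hindbrain and thalamic projection neurons, followed Rims3. It was 182 CPM in library 12 and 127 to 152 in the other WT SH libraries, and 181 CPM in library 5 and 141 to 149 in the other KD SH libraries. Sv2c, the SV2 of basal ganglia, was highest in library 14 (51.8 CPM, against 34.98 to 42.2 in the other WT SH libraries), which is the library with 304 CPM of striatal markers. Library 12 had the highest sum of thalamic markers (322 CPM), while that of library 5 (105 CPM) was close to that of library 10 (103 CPM). Libraries 12 and 5 had the highest sums of 6 oligodendrocyte markers among the 22 (6638 and 6207 CPM, none at 0). Their sums of neocortical markers (85.5 and 92.8 CPM) were also the highest, though library 8 (84.95 CPM) was close to library 12. The dentate granule cell sum of library 5 (177 CPM) was below that of every other library. The part of neighbouring tissue or of other cells in these values was not tested. Library 14 gave the highest value of 9 of the 40 members and library 5 the lowest of 8.

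**Figure D5:**
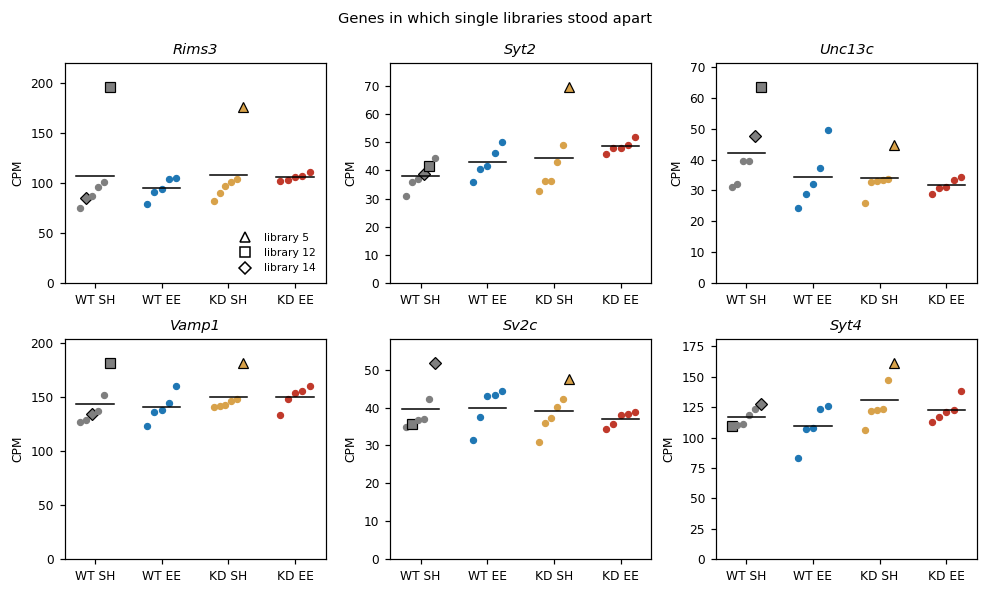
CPM of 6 genes by group, with libraries 5, 12 and 14 drawn as a triangle, a square and a diamond and the group mean as a bar. Rims3 and Vamp1 are highest in libraries 12 and 5, Unc13c in library 12, Syt2 and Syt4 in library 5, and Sv2c in library 14.

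Other members whose values were given under the rule were the most and least abundant. Cplx2 was 1494, 1683 and 1753 CPM in WT SH, 1422, 1457, 1473, 1609 and 1661 in WT EE, 1080, 1502 and 1772 in KD SH, and 1376, 1417, 1478, 1482 and 1545 in KD EE, and libraries 1, 2 and 5 made KD SH the widest group. Snap25 was 1780, 2022 and 2372 CPM in WT SH, 1879 to 1925 in WT EE, 1672, 2062 and 2409 in KD SH, and 1617 to 2094 in KD EE. Slc17a7 was 1279, 1424 and 1539 CPM in WT SH, 1219 to 1442 in WT EE, 1091, 1319 and 1529 in KD SH, and 1220 to 1443 in KD EE. None of these 3 separated any pair of groups that was compared. Cplx3, a complexin of few forebrain neurons, was 6.99, 9.81 and 10.9 CPM in WT SH, 9.10 to 13.2 in WT EE, 6.58, 10.98 and 12.2 in KD SH, and 7.89 to 14.2 in KD EE. Doc2a, a calcium sensor of spontaneous and asynchronous release, was 5.695, 6.56 and 8.28 CPM in WT SH, 4.71 to 7.59 in WT EE, 5.32, 6.996 and 7.51 in KD SH, and 3.07 to 7.44 in KD EE, with the lowest value in library 9, the shallowest.

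A further 59 genes around the core machinery were listed, 12 other SNAREs and their regulators, 12 other vesicle proteins, 6 other synaptotagmins, 10 other active zone proteins, 14 of vesicle recovery and 5 of the proton pump, and 58 passed the filter (Cplx4 did not). None was called in any comparison by edgeR. At an unadjusted p under 0.05 there were 6 of 58 in WT EE against SH, all lower, against 3.4% of all genes on that side, 1 in KD EE against SH (9.63% of all genes), 1 in KD against WT in SH (5.76%), 0 in EE (2.61%) and 0 for the interaction (2.04%). In WT they included Syt6, Dnm3, Sh3gl2 and Atp6v1g2. Atp6v1g2, a subunit of the pump that acidifies vesicles, was the 1 gene whose WT EE libraries all lay below the WT SH libraries, as in 0.698% of all genes (log2 fold change -0.16, SE 0.058, adjusted p = 0.427 by edgeR). Averaged over the genotypes, Syt6 was at -0.36 (SE 0.118, adjusted p = 0.119 by edgeR) and Rims4 at 0.20 (SE 0.071, adjusted p = 0.152), while the medians of the lists by role all stayed within 0.05 of 0.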

How the data were processed

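STAR 2.5 (to GRCm38) and HTSeq, which ignored the strand and took unique alignments, gave the counts per gene symbol that the authors deposited. The files hold these raw counts, which were used as they stand. The 5 summary lines that name no gene were left out, and they stay out of library sizes. Among them, fragments in no gene and ambiguous ones were 14.0% to 18.6% of the total of these and the fragments on genes in the 22 libraries. A deposited table of scaled values was not used. Genes were filtered by filterByExpr, scaled by TMM and tested in edgeR 4.0.16 (R 4.3.3) with 1 mean for each of the 4 groups over 22 libraries and Benjamini-Hochberg adjustment over 18482 genes. DESeq2 1.42.0 was an alternative, and the test was tried on simulated counts. No pair of 276 library pairs held identical counts. The members, the lists of other genes and markers, and the tests were chosen with earlier results of these data known. Values were given, for some genes in only some of the groups, for members chosen by a rule. The rule took the 2 members with the lowest p per test, any called, and the 4 highest and 4 lowest per length. It also took the 4 most variable and those without overlap between groups. Unc13a, Pclo, Vamp1, Sv2c and other genes beyond that were added after their values were seen. Exon lengths and positions were from GENCODE M21, promoter sequences from RefSeq (GRCm38.p6). Figures were drawn with matplotlib in Python.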

Additional observations from a re-analysis of the deposited data

Results flagged for a closer look

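Dixon's gap test was applied to 164 combinations of a member, or of the summed CPM of all members, with 1 of the 4 groups. Of these combinations, 10 held a library that stood far from the others of its group, and chance alone gives about 1 in 20. In WT SH these were Rims3 at 196 CPM in library 12, Nsf at 1157 CPM (low) in library 12, Stx1a at 95.3 CPM (low) in library 14 and Cplx3 at 6.99 CPM (low) in library 13. In KD SH they were Rims3 at 176 CPM and Vamp1 at 181 CPM, both in library 5. In WT EE it was Unc13b at 98.2 CPM in library 35A. In KD EE they were Syt12 at 17.1 CPM (low) in library 7, Syt11 at 798 CPM (low) in library 9 and Napb at 435 CPM (low) in library 36A.

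Library 33B (WT EE) failed quality control and was not among the 22 libraries. In it, 7 of the 40 members were higher than in every SH library, against 12.4% of the 18482 genes, and 6 were lower (Synpr, Vamp2, Syt4, Syt11, Cplx1 and Rab3a), against 20.2%. The higher ones were Bsn at 828 CPM, Pclo at 545 CPM, Unc13b at 96.0 CPM, Rims2 at 71.6 CPM, Syt12 at 20.98 CPM, Syn3 at 17.9 CPM and Cplx3 at 13.3 CPM.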

How the results depend on the processing

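No paired analysis was possible because the groups share no replicate numbers. No member was called in a comparison of groups under any setting. In the joint test of the 4 groups, where a call rests on the adjusted p alone, DESeq2 called 1 member, Syt12, in place of 0. The count over all genes moved far more. In WT EE against SH, where the 22 libraries gave 0 genes, there were 664 in the 17 libraries of the study, 1 in all 24, 314 without the lettered libraries, 20 by DESeq2 and 7 with no filter. In KD EE against SH there were 325 in the 17 and 3 by DESeq2, in KD against WT 2 by DESeq2 in SH and 1 in the 17 in EE. For EE against SH averaged over genotypes, 27 genes became 720 in the 17, 90 in the 24, 80 without lettered libraries, 211 by DESeq2, 44 with its size factors, 209 with no filter, 45 with at least 10 counts in every library, 49 by the adjusted p alone, 4 without libraries 12 and 14 and 3 without 5, 12 and 14. In the joint test, 0 became 687 in the 17, 12 in the 24, 62 without lettered libraries, 109 by DESeq2 and 18 with no filter. Leaving out 1 library at a time gave 2 (without 1) to 287 (without 31B) for the averaged housings, 0 to 1 in KD EE against SH and in KD against WT in EE (both without 9) and 0 to 9 in the joint test (without 31B), and members stayed at 0. The cause was not tested. The 27 fold changes of named members kept their direction under every setting; Bsn in WT, which is not among them, did not (0.13 against -0.16 without the lettered libraries). The added settings without libraries 5, 12 and 14 were chosen after seeing the data.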
